A study of Mus musculus with 9 samples.

Results

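The inflammatory CC chemokines Ccl2, Ccl3, Ccl4, Ccl5, Ccl6, Ccl7, Ccl8, Ccl9, Ccl11 and Ccl12 were followed in the mouse aorta during infusion of the pressor peptide angiotensin II (Ang II), which is given to mice to produce abdominal aortic aneurysm. They were selected by gene symbol and not by a cutoff on their values, but with earlier results of these data known, and all 10 were found among the 18830 genes listed in the count files. The study asked, from its title and design, about aortic inflammation and NF-κB signalling in this model, and it sequenced aortic RNA in 3 groups of 3 libraries. The first group received Ang II at 1000 ng/kg/min from an osmotic pump for 28 days, the next received the same infusion for 14 days, and the last was a sham control, for which the design text names saline. All 9 libraries came from mice with the ApoE knock out, a strain prone to atherosclerosis, so the controls carry the deletion too and no wild type aorta was analysed here. The design text places the dissection in the suprarenal abdominal aorta, and the source and tissue labels give aorta, although all 9 sample titles begin with the word Muscle. The sources used here do not give the day on which sham aortas were taken, the age and sex of the mice, or whether each library is 1 animal. The p-values below therefore measure only the spread between libraries.

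CC chemokines are small secreted proteins with a pair of adjacent cysteines near the start of the mature chain. They bind to glycosaminoglycans on vessel walls and to G protein coupled receptors of the CCR family on leukocytes, and so guide those cells from the blood into tissue. Ccl2, Ccl7 and Ccl12 act on Ccr2 and are best known for drawing in monocytes, Ccl3, Ccl5, Ccl6 and Ccl9 act on Ccr1, and Ccl4 is a close relative of Ccl3. Ccl11 is the eotaxin that draws eosinophils through Ccr3, and mouse Ccl8 acts on Ccr8. In aneurysmal aorta the family is known mainly through Ccl2 and its receptor, since mice without Ccr2 have been used to study monocyte entry into the wall.

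The 10 genes lie on mouse chromosome 11 in the GRCm38 build, in groups separated by 1408978 bases without a member between. The first group holds Ccl2 (chr11:82035571-82037453), Ccl7 (chr11:82045712-82047525), Ccl11 (chr11:82057823-82062955), Ccl12 (chr11:82101845-82103400) and Ccl8 (chr11:82115185-82116799), all on the plus strand. The other holds Ccl5 (chr11:83525778-83530518), Ccl9 (chr11:83572919-83578636), Ccl6 (chr11:83587882-83593087) and Ccl3 (chr11:83647844-83649355) on the minus strand, and Ccl4 (chr11:83662584-83664683) on the plus strand. The principal transcripts of 8 of them have 3 exons, and those of Ccl6 and Ccl9 have 4. RefSeq promoter windows on GRCm38.p6, from 250 bases before to 50 bases after each start, were at hand for 5 members: Ccl12, Ccl8, Ccl9, Ccl6 and Ccl3. The Ccl12 and Ccl8 windows come from neighbouring genes of the first group. The Ccl9 and Ccl6 windows come from a neighbouring pair whose counts moved closely together below. These windows are shown 5′ to 3′ on the gene's own strand. Matches to TATAAA, to TGANTCA and to the κB consensus are in capitals on either strand. TGANTCA is a loose spelling of the AP-1 site, with any base at N, so a match need not be an AP-1 site.
Ccl12, chr11:82101595-82101894, plus strand: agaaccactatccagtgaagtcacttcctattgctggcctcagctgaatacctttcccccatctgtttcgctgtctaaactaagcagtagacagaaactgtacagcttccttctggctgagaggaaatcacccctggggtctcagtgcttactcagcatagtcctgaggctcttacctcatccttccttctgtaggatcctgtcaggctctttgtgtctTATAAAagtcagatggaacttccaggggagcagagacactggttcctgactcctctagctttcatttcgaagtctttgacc
Ccl8, chr11:82114935-82115234, plus strand: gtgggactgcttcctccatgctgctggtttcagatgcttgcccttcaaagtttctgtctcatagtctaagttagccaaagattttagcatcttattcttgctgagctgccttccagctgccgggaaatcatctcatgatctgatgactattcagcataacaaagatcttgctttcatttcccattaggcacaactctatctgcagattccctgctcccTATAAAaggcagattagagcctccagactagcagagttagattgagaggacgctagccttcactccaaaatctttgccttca
Ccl9, chr11:83578587-83578886, minus strand: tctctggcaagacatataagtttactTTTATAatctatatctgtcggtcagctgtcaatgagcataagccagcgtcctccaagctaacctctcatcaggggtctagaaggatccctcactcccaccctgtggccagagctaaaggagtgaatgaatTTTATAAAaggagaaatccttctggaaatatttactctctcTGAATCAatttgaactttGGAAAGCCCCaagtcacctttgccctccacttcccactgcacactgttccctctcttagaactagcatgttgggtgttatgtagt
Ccl6, chr11:83593038-83593337, minus strand: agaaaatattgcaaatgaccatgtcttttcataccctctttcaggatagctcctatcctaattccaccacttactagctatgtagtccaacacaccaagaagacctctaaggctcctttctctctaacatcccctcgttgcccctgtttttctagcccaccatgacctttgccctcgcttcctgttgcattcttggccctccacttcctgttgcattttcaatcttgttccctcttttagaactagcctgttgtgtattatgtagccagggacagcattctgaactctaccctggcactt

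Ccl12 and Ccl8 hold TATAAA at nearly the same place, with its first base at -31 and -32 from the start. Ccl9 holds that motif at -92 on its own strand and at -94 and -224 on the other, where the -92 and -94 matches overlap. The Ccl9 window also holds TGAATCA, a match to TGANTCA that reads on both strands, at -53, and a κB consensus match on the other strand at -35. Of the 32851 RefSeq windows of 300 bases, 13.6% hold TATAAA, 7.81% hold TGANTCA and 4.51% hold the κB consensus. A stricter spelling of the κB motif is in 0.411% of windows and in 0 of the 5 members' windows. GAGGAA, the core of sites for the myeloid factor PU.1, is in 28.3% of windows and in those of Ccl12, Ccl8 and Ccl3, and it is not capitalised above. The longest run shared by Ccl9 and Ccl6 is 13 bases, gccctccacttcc, and by Ccl12 and Ccl8 11 bases. These matches are letters in a window and not measured binding.

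Libraries held 9609690 to 14923936 expected counts, and levels are given as CPM, the count brought to a common library total. All 10 members passed the filter on low counts, with at least 10 counts in every sham library except for Ccl3 (2 of 3) and Ccl4 (1 of 3). Ccl4 thus passed mainly through Ang II libraries. The member counts below that include it, beside shares of all genes, are therefore not a test of the members as a set. Apoe, the gene targeted in the strain, had 23.0, 171 and 270 CPM in 28-day replicates 1 to 3, 162, 648 and 160 CPM in the 14-day replicates and 22.5, 87.5 and 70.3 CPM in the sham replicates; counts per gene do not show which part of it was read. Several libraries stood apart in the summed CPM of marker genes. The 12 macrophage and monocyte markers summed to 16150 CPM in 14-day replicate 2, against 458.5 to 4450 CPM in the other 8 libraries. The 4 B cell markers summed to 819 CPM in 28-day replicate 2 and 1127 CPM in 14-day replicate 3, against at most 101.9 CPM elsewhere, and these 2 libraries were also highest in T and NK cell markers, at 193 and 490 CPM. Skeletal muscle markers reached 12410 and 4125 CPM in 28-day replicates 1 and 2 and nerve markers 1592, 1394 and 3412 CPM in 28-day replicate 2, 14-day replicate 1 and sham replicate 2. The 5 smooth muscle markers, which define the labelled tissue, were present in all 9 libraries, at 1951 to 5983, 3502 to 16010 and 9212 to 27850 CPM at 28 days, at 14 days and in sham aortas. The 5 fibroblast markers summed to 1741 to 3706 CPM at 28 days, 2283 to 3828 CPM at 14 days and 1192 to 2133 CPM in sham aortas, and the 3 brown fat markers to 1747 to 4931, 987 to 2442 and 4114 to 8665 CPM, so that at 14 days all libraries were above sham in fibroblast markers and below sham in brown fat markers. The part of these tissues in the values below was not tested. In whole aorta more cells of a type and more RNA per cell cannot be told apart.

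The mean level of 9 of the 10 chemokines was higher in both Ang II groups than in sham aortas, and that of Ccl11 was higher at 28 days only. No member passed an adjusted p of 0.05 in edgeR's quasi-likelihood test in any comparison, where 0 of 14741 genes did. Without adjustment, 3 of 10 members (Ccl4, Ccl5 and Ccl8) had an edgeR p under 0.05 and were higher at 28 days than in sham aortas, beside 7.96% of all genes. At 14 days 8 of 10 did, all but Ccl3 and Ccl11, beside 13.1% of all genes. In a DESeq2 fit, 1 member (Ccl5) was called higher at 28 days, beside 3.89% of all genes, and 7 (Ccl2, Ccl4, Ccl5, Ccl6, Ccl7, Ccl8 and Ccl12) at 14 days, beside 8.60%. The 3 libraries of a group did not overlap with the 3 sham libraries for 4 members at 28 days (Ccl4, Ccl5, Ccl8 and Ccl11), where 12.2% of all genes were higher in this way, and for 4 at 14 days (Ccl2, Ccl4, Ccl5 and Ccl8), where 12.6% were. The median log2 fold change of the members was 1.49 at 28 days and 2.47 at 14 days, against -0.08 and -0.07 over all genes tested. Both comparisons use the same sham libraries. Across the whole table, 2042 genes at 28 days and 3460 at 14 days had an unadjusted p under 0.05, and DESeq2 called 970 and 1970.

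**Figure D1:**
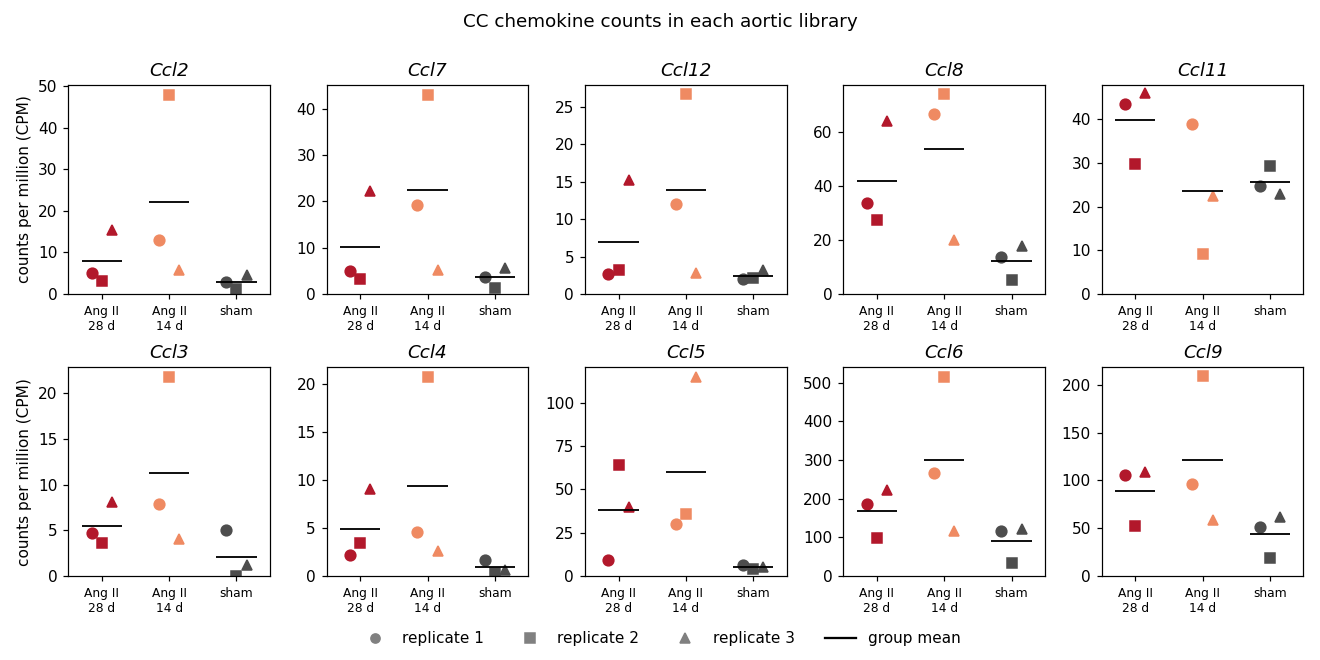
Scaled counts in CPM (y axis, linear, from 0) of the 10 chemokines in each of the 9 libraries, with the groups along the x axis; point shapes mark the replicates and bars the group means. In 8 panels the highest point is 14-day replicate 2, while Ccl5 is highest in 14-day replicate 3 at 115 CPM and Ccl11 is lowest in 14-day replicate 2 at 9.22 CPM.

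Among the Ccr2 ligands, Ccl2, the main attractant of inflammatory monocytes, had 4.93, 3.08 and 15.4 CPM in 28-day replicates 1 to 3, 12.9, 48.0 and 5.77 CPM in the 14-day replicates and 2.98, 1.07 and 4.45 CPM in the sham replicates. All 3 of the 14-day libraries were above all sham libraries, while 28-day replicates 1 and 2 lay near or within the sham range. The log2 fold change over sham was 1.47 ± 0.94 (SE) at 28 days (edgeR adjusted p = 0.587) and 2.97 ± 0.98 at 14 days (edgeR adjusted p = 0.141; DESeq2 adjusted p = 0.0123). Ccl7, its neighbour on the chromosome and a ligand of the same receptor, had 5.04, 3.30 and 22.2 CPM at 28 days, 19.2, 43.0 and 5.09 CPM at 14 days and 3.73, 1.36 and 5.61 CPM in sham aortas. Its high libraries were again 28-day replicate 3 and 14-day replicates 1 and 2, and both Ang II groups overlapped with the sham group. Ccl12, a Ccr2 ligand of the mouse, followed the same pattern, with 2.63, 3.15 and 15.3 CPM at 28 days, 11.98, 26.7 and 2.85 CPM at 14 days and 2.03, 2.15 and 3.20 CPM in sham aortas. At 14 days the log2 fold change over sham was 2.66 ± 1.004 for Ccl7 (edgeR adjusted p = 0.170). That of Ccl12 was 2.49 ± 0.93 (edgeR adjusted p = 0.168). Without 14-day replicate 2 the 14-day values of Ccl2, Ccl7 and Ccl12 were 1.73, 1.78 and 1.60 (edgeR adjusted p of 0.394, 0.455 and 0.456). At 28 days Ccl7 stood at 1.52 ± 0.97 (edgeR adjusted p = 0.589) and Ccl12 at 1.51 ± 0.91 (edgeR adjusted p = 0.556), and 0 of these 3 ligands had an unadjusted p under 0.05. The 28-day values rested on replicate 3: without it the log2 fold changes of Ccl2, Ccl7 and Ccl12 were 0.51, 0.24 and 0.26 (edgeR adjusted p of 0.974, 0.989 and 0.989).

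Ccl5 and Ccl4 had the largest fold changes of the 10 genes at both times. Ccl5, made largely by T and NK cells and known for drawing in T cells, had 9.52, 64.1 and 39.9 CPM in the 28-day replicates, 30.0, 35.8 and 115 CPM in the 14-day replicates and 6.39, 4.15 and 4.98 CPM in the sham replicates. All 6 Ang II libraries were above all 3 sham libraries, whose coefficient of variation was 21.9%, against 72.3% at 28 days and 78.8% at 14 days. The log2 fold change over sham was 2.88 ± 0.77 at 28 days (edgeR adjusted p = 0.217; DESeq2 adjusted p = 0.00345) and 3.54 ± 0.79 at 14 days (edgeR adjusted p = 0.117; DESeq2 adjusted p = 0.000107). Without the B cell rich libraries (28-day replicate 2 and 14-day replicate 3), Ccl5 stood at 2.26 ± 0.58 (adjusted p = 0.407) and 2.67 ± 0.58 (adjusted p = 0.161) in edgeR. Ccl4, an activated macrophage and lymphocyte product, had 2.19, 3.44 and 9.04 CPM at 28 days, 4.63, 20.8 and 2.65 CPM at 14 days and 1.71, 0.358 and 0.623 CPM in sham aortas. Its Ang II libraries too were all above all sham libraries, by a log2 fold change of 2.46 ± 0.99 at 28 days (edgeR adjusted p = 0.322) and 3.39 ± 1.02 at 14 days (edgeR adjusted p = 0.129). The nearest were 28-day replicate 1 and sham replicate 1, from 20 and 16 counts, a gap within counting error. Sham counts of Ccl4 were 16, 5 and 7, so counting error adds to its spread there, though most of that spread is between libraries. Ccl3, the close relative of Ccl4 that binds Ccr1, had 4.71, 3.58 and 8.13 CPM at 28 days, 7.85, 21.8 and 4.07 CPM at 14 days and 5.01, 0 and 1.25 CPM in sham aortas. The 0 in sham replicate 2 allows up to 0.215 CPM (3 counts, counting error only), and sham replicate 1 was above 2 of the 28-day libraries and 1 of the 14-day libraries. Ccl3 had the largest SE of the 10 genes, with a log2 fold change of 1.41 ± 1.27 (adjusted p = 0.747) for 28 days and 2.44 ± 1.31 (adjusted p = 0.299) for 14 days.

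Ccl6 and Ccl9, Ccr1 ligands of myeloid cells that are known in the mouse and lie next to each other, had similar values to each other relative to sham. Ccl6 had 187, 98.4 and 221 CPM in the 28-day replicates, 266, 516 and 117 CPM in the 14-day replicates and 117, 32.7 and 122 CPM in the sham replicates. Ccl9 had 106, 52.1 and 109 CPM at 28 days, 95.9, 209 and 59.1 CPM at 14 days and 50.8, 18.7 and 61.9 CPM in sham aortas. For both genes 1 library of each Ang II group lay within the sham range, replicate 2 at 28 days and replicate 3 at 14 days. The fold changes were the smallest of the family after that of Ccl11, at 0.89 ± 0.65 (edgeR adjusted p = 0.660) and 1.72 ± 0.66 (edgeR adjusted p = 0.175) on the log2 scale for Ccl6 at 28 and at 14 days. Ccl9 stood at 1.02 ± 0.58 (edgeR adjusted p = 0.529) at 28 days and 1.47 ± 0.59 (edgeR adjusted p = 0.187) at 14 days. The deposited counts of Ccl9 were not whole in 2 libraries, so some of its reads were shared with other features, while those of the other 9 members were whole in all libraries.

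Ccl8, a Ccr8 ligand of tissue macrophages in the mouse, had 33.7, 27.3 and 64.0 CPM in the 28-day replicates, 66.8, 73.9 and 19.96 CPM in the 14-day replicates and 13.8, 5.29 and 17.7 CPM in the sham replicates. All 6 Ang II libraries were above all sham libraries, the nearest of them 14-day replicate 3. The log2 fold change was 1.77 ± 0.62 at 28 days (edgeR adjusted p = 0.262; DESeq2 adjusted p = 0.0583) and 2.13 ± 0.63 at 14 days (edgeR adjusted p = 0.127; DESeq2 adjusted p = 0.00800). Ccl11, the eotaxin, had the smallest fold changes of the 10 genes, with 43.5, 29.7 and 46.0 CPM at 28 days, 38.8, 9.22 and 22.4 CPM at 14 days and 24.6, 29.4 and 22.9 CPM in sham aortas. The 28-day libraries were all above the sham libraries, but replicate 2 by little, and the 14-day libraries spread on both sides of them. Its log2 fold change was 0.63 ± 0.45 at 28 days (edgeR adjusted p = 0.652) and -0.13 ± 0.45 at 14 days (edgeR adjusted p = 0.882). The 14-day value was set by replicate 2, and without that library it was 0.28 ± 0.29 (edgeR adjusted p = 0.715). The 7 mast cell and eosinophil markers summed to 18.7 to 45.4 CPM at 28 days, 3.82 to 47.7 CPM at 14 days and 53.4 to 183 CPM in sham aortas. Mast cell genes made up most of that sum, with sham means of 44.3 (Mcpt4), 35.6 (Tpsb2) and 17.1 CPM (Cpa3). Among eosinophil genes, Epx, which encodes the peroxidase of eosinophils, had 0 counts in all 9 libraries. Mean CPM at 28 days, at 14 days and in sham aortas was 0.270, 0.636 and 0.268 for Siglecf and 0.782, 0.350 and 0.309 for Prg2. Neither passed the filter, so the sums do not show the course of eosinophils. The part of these cells in the Ccl11 values was not tested, and Ccr3, the eotaxin receptor, had at most 1.08 CPM and did not pass the filter.

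**Figure D2:**
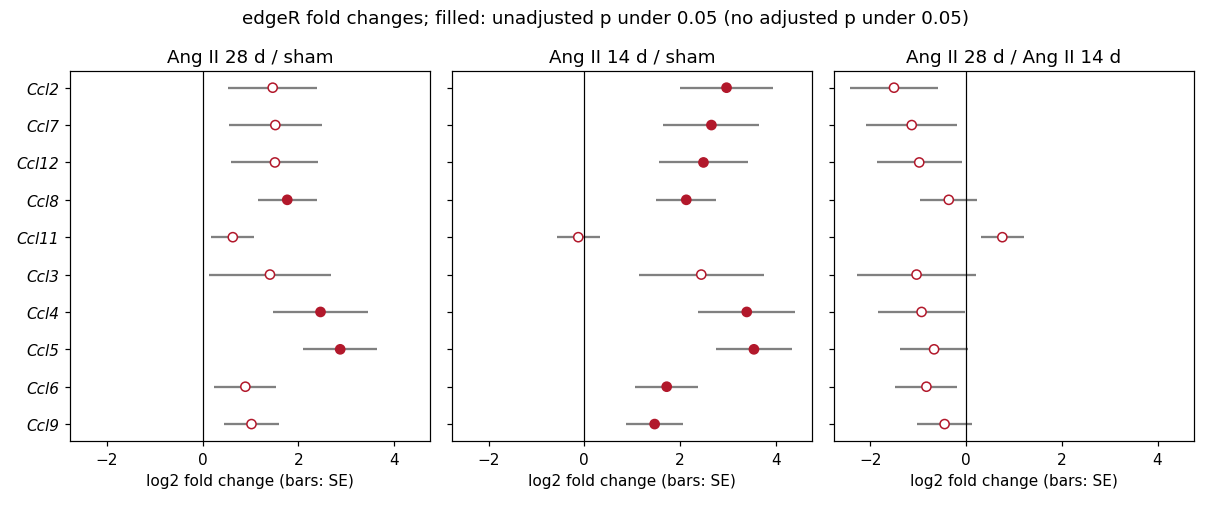
edgeR log2 fold changes (x axis) of the 10 chemokines with bars of 1 SE, for 28 days over sham, 14 days over sham and 28 over 14 days; filled points have an unadjusted p under 0.05 and 0 members have an adjusted p under 0.05. Filled points number 3 at 28 days, 8 at 14 days and 0 between the times, and Ccl11 is the only member with a positive value between the times.

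Between the times, the means of 9 members were lower at 28 days than at 14 days and that of Ccl11 was higher, but the groups overlapped for all 10. No member had an unadjusted p under 0.05 in edgeR, beside 2.27% of all genes lower and 3.86% higher at 28 days, while 903 genes did. DESeq2 called 0 members and 118 genes, 0.21% of genes as lower and 0.59% as higher at 28 days. No member was in the 5.71% of genes with all 28-day libraries below all 14-day libraries or in the 4.35% with the opposite. The median log2 fold change was -0.88, against -0.05 over all genes. The most negative value, that of Ccl2, was -1.51 ± 0.92 (edgeR adjusted p = 0.774), and that of Ccl11 was 0.76 ± 0.45 (edgeR adjusted p = 0.774). Without 14-day replicate 2, the library richest in macrophage transcripts, the same values were -0.25 for Ccl2 and 0.38 for Ccl11, and those of Ccl4 and Ccl9 turned positive, at 0.43 and 0.20.

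Taking both times as 1 condition, 6 of 10 members (Ccl2, Ccl4, Ccl5, Ccl8, Ccl9 and Ccl12) had an unadjusted p under 0.05 and were higher than in sham aortas, beside 11.4% of all genes. DESeq2 called 4 members (Ccl2, Ccl4, Ccl5 and Ccl8), beside 7.87% of all genes. All 6 Ang II libraries were above all 3 sham libraries for Ccl4, Ccl5 and Ccl8, as for 8.57% of all genes, though for Ccl4 by a gap within counting error. The log2 fold changes of these 3 were 2.93 ± 0.94, 3.21 ± 0.74 and 1.95 ± 0.57, with edgeR adjusted p of 0.145, 0.125 and 0.133. Over all 14741 genes edgeR called 0, 3168 had an unadjusted p under 0.05, and DESeq2 called 1797.

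Per length of the principal transcript, Ccl6 had the highest mean of the members in all 3 groups, with 117 ± 44.0, 208 ± 140 and 63.1 ± 35.0 CPM per kb at 28 days, at 14 days and in sham aortas (SD, n = 3 each). Within single libraries Ccl5 was above it in 28-day replicate 2 (121 against 68.3 CPM per kb) and 14-day replicate 3 (216 against 81.5), and Ccl11 in sham replicate 2 (27.2 against 22.7). Ccl6 made up 30.35%, 34.8% and 41.6% of the summed level of the 10 members. The order after it at 28 days was Ccl8, Ccl5, Ccl11, Ccl9, Ccl12, Ccl7, Ccl2, Ccl4 and Ccl3. At 14 days it was Ccl5, Ccl8, Ccl9, Ccl7, Ccl2, Ccl12, Ccl11, Ccl3 and Ccl4. In sham aortas it was Ccl8, Ccl11, Ccl9, Ccl5, Ccl12, Ccl7, Ccl2, Ccl3 and Ccl4. Libraries of neighbours in the order overlapped throughout, except that in sham aortas Ccl11 was above Ccl9, and Ccl5 above Ccl12, in all 3 libraries. Ccl5 stood at 71.2 ± 51.4, 113 ± 89.3 and 9.73 ± 2.13 CPM per kb, or 18.4%, 18.9% and 6.42% of the members' sum. Ccl11 stood at 36.7 ± 8.09, 21.7 ± 13.7 and 23.7 ± 3.12 CPM per kb, or 9.51%, 3.63% and 15.6%. Summed over the 10 members, the 28-day libraries had 315, 311 and 532 CPM per kb, the 14-day libraries 519, 870 and 405 and the sham libraries 181, 81.8 and 192. The sums of all 6 Ang II libraries were above those of all 3 sham libraries.

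**Figure D3:**
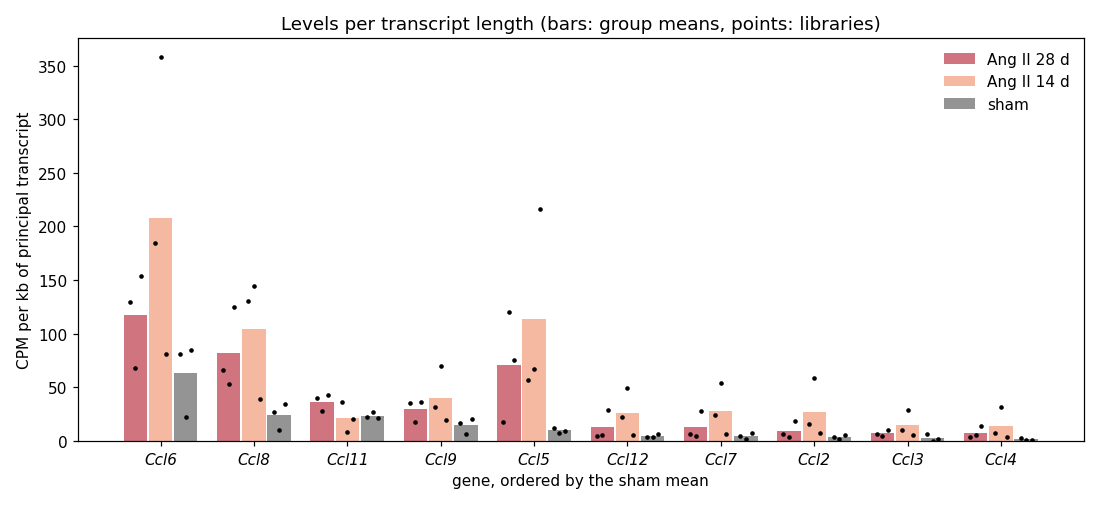
Level of each chemokine per kb of its principal transcript (y axis, CPM per kb, from 0), with genes ordered along the x axis by the sham mean; bars are group means and points the 3 libraries. Ccl6 has the tallest bar in each group, and the Ccl5 bars at 71.2 and 113 CPM per kb in the Ang II groups stand over 9.73 CPM per kb in sham aortas.

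The same few libraries were high for most members. In the 28-day group replicate 3 was highest for 9 of 10 members and replicate 2 lowest for 7, and in the 14-day group replicate 2 was highest for 8 and replicate 3 lowest for 8. Sham replicate 2 was the lowest of its group for 8 members. Over the 9 libraries, 8 members (all but Ccl5 and Ccl11) correlated with each other at Pearson 0.658 to 0.985 on log2 CPM (28 pairs, Spearman 0.583 to 0.933). The closest pairs were Ccl2 with Ccl7 and Ccl6 with Ccl9, each at 0.985 and each of neighbouring genes. Ccl5 correlated with those 8 at 0.414 to 0.681 (Spearman 0.133 to 0.717), and Ccl11 at -0.386 to -0.039 (Spearman -0.1 to 0.183). These values depended on the 2 libraries farthest from the median of 1 gene of the pair. Without them Ccl5 stood at -0.048 to 0.656 with those 8. Ccl11 turned positive for all 8, at 0.325 to 0.894. These are descriptions over 9 libraries that share depth, group and tissue makeup.

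**Figure D4:**
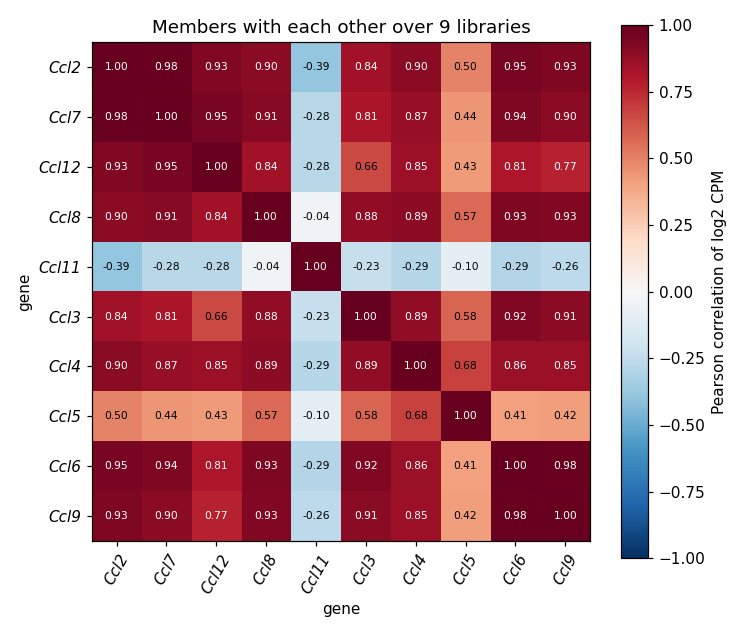
Pearson correlation of log2 CPM between each pair of chemokines over the 9 libraries, on a colour scale from -1 to 1. The 8 members other than Ccl5 and Ccl11 form a block at 0.658 or more, the Ccl5 row is paler, and the Ccl11 row is at or under -0.039 for the other 8. Without the 2 farthest libraries of each pair, the Ccl11 values for the same 8 were positive.

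The chemokines differed in which cell markers they moved with. Ccl4 followed the mean log2 CPM of the 12 macrophage and monocyte markers most closely, at Pearson 0.978 and Spearman 0.983, and at 0.957 without the 2 libraries farthest from the median. For Ccl2, Ccl3, Ccl6, Ccl8 and Ccl9 the correlation with the same markers was 0.882 to 0.911, and without the 2 farthest libraries it was 0.471 for Ccl6, 0.509 for Ccl9, 0.630 for Ccl2, 0.748 for Ccl3 and 0.787 for Ccl8, so for Ccl6 and Ccl9 it rested largely on those libraries. Ccl7 and Ccl12 correlated with them at 0.856 and 0.816, and Ccl7 at 0.554 without the 2 farthest libraries. With the 5 fibroblast markers, Ccl2, Ccl6, Ccl7 and Ccl8 correlated at 0.803, 0.809, 0.806 and 0.844, and Ccl3 and Ccl4 at 0.640 and 0.652. Without the 2 libraries farthest in fibroblast markers, Ccl2, Ccl6 and Ccl7 stood at 0.681, 0.779 and 0.714, above their macrophage values. Ccl3, Ccl4 and Ccl8 stood at 0.608, 0.469 and 0.704, below theirs. Ccl5 followed the 7 T and NK cell markers at Pearson 0.984 and Spearman 0.950 (Pearson 0.980 without the 2 farthest). With the 4 dendritic cell markers it stood at Pearson 0.975 and Spearman 0.917. Ccl5 also moved with the 4 B cell markers, at Pearson 0.916 and Spearman 0.983. With the 3 lymph node stroma markers that passed the filter it stood at Pearson 0.789 and Spearman 0.9. Its 2 highest libraries, 28-day replicate 2 at 64.1 CPM and 14-day replicate 3 at 115 CPM, are those rich in B cell transcripts, and the 4 lymph node stroma markers summed there to 748 and 586 CPM, against at most 234 CPM elsewhere. Ccl11 correlated with the macrophage markers at -0.398, and at 0.665 without the 2 farthest libraries. The part of these cell types in the fold changes was not tested. The summed CPM of the 12 macrophage and monocyte markers is weighted to the most abundant of them. Lyz2 held 7942 of 16150 CPM in 14-day replicate 2, 1274 of 2631 CPM in 28-day replicate 1 and 139 of 458.5 CPM in sham replicate 2. As a rate per 1000 CPM of this sum, Ccl4 was 0.832, 1.06 and 2.03 CPM in the 28-day replicates, 1.63, 1.28 and 0.957 in the 14-day replicates and 0.875, 0.780 and 0.635 in the sham replicates. All 14-day libraries thus stayed above all sham libraries, while the 28-day libraries overlapped with them. On the same scale Ccl2 was 1.87, 0.947 and 3.46 at 28 days, 4.54, 2.97 and 2.09 at 14 days and 1.53, 2.34 and 4.54 in sham aortas, and its groups overlapped. Ccl6 was 70.9, 30.2 and 49.7 at 28 days, 93.5, 31.9 and 42.4 at 14 days and 60.2, 71.3 and 125 in sham aortas, again with overlap. Ccl5, at 3.62, 19.7 and 8.97 at 28 days, 10.6, 2.22 and 41.6 at 14 days and 3.28, 9.05 and 5.08 in sham aortas, overlapped with sham on this scale. Ccl8 did too, at 12.8, 8.39 and 14.4 at 28 days, 23.5, 4.58 and 7.22 at 14 days and 7.06, 11.5 and 18.0 in sham aortas. The 14-day group of Ccl4 was the only Ang II group of any member that did not overlap with sham in this rate. Its nearest libraries were 14-day replicate 3 at 0.957 and sham replicate 1 at 0.875, from 39 and 16 counts. That gap is within counting error, and the share of all genes without overlap in this rate was not computed.

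**Figure D5:**
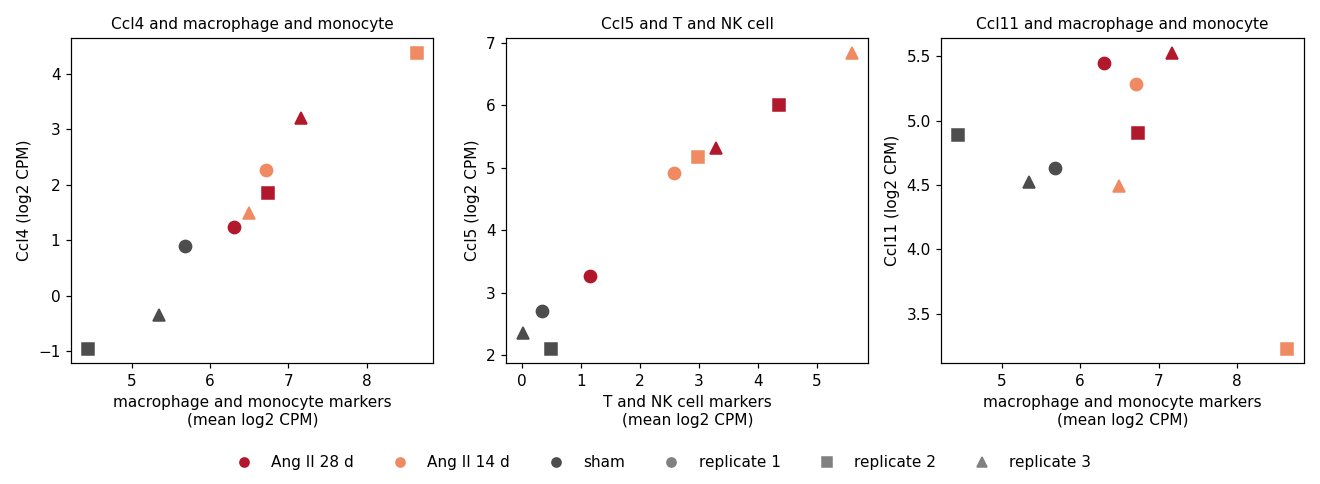
Log2 CPM of Ccl4, Ccl5 and Ccl11 (y axes) against the mean log2 CPM of macrophage and monocyte markers, T and NK cell markers and macrophage and monocyte markers (x axes), with 1 point per library, colours for groups and shapes for replicates. Ccl4 (Pearson 0.978) and Ccl5 (0.984) lie along a line, and Ccl11 (-0.398) does not, with 14-day replicate 2 at the lower right.

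Among 14291 other genes of at least 1 CPM, the genes most like each member over the 9 libraries were found by Pearson correlation. Ccl2 was most like Ccr1, a receptor of this family, at 0.978. Those nearest to Ccl4 were Apoc2 (0.988), an apolipoprotein gene, Sirpb1b (0.985) and Lrrc25 (0.983). Nearest to Ccl5 came Il2rb (0.989), the interleukin 2 receptor beta chain, Ifi209 (0.988), an interferon inducible gene, and Ctsw (0.987), a cathepsin of cytotoxic lymphocytes. Ccl6 and Ccl9 were both nearest to Col1a2, a fibrillar collagen chain (0.976 and 0.979), and Prg4, which encodes lubricin (0.971 and 0.981). Ccl3 was nearest to Alpk1 (0.978), Itgax (0.972), the CD11c integrin chain, and Gpnmb (0.968), a gene of lipid-laden macrophages. Ccl8 was nearest to Mlkl (0.978), the effector of necroptosis, Ccl7 to Lilra5 (0.970), Ccl12 to Siglece (0.938) and Ccl11 to Stxbp6 (0.968), Hcar1 (0.967) and Dock9 (0.958). These lists come from the top of 14291 correlations over 9 points that share the libraries named above.

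The receptors were read beside their ligands. Of 10 CC receptor genes read here, 5 passed the filter. At an unadjusted p under 0.05, 3 of the 5 were higher at 28 days than in sham aortas (Ccr2, Ccr6 and Ccr7) and 4 at 14 days (these and Ccr1), where 7.96% and 13.1% of all genes were, and Ccr10 had an edgeR adjusted p of 0.964 and 0.506. Sham replicates 1 to 3 had 0, 1 and 0 counts of Ccr6 and 6, 2 and 15 of Ccr7. Ccr6 passed the filter through Ang II libraries alone and Ccr7 mainly through them. The receptor counts beside these shares are therefore not a test of the receptors as a set. Ccr2, the monocyte receptor for Ccl2, Ccl7 and Ccl12, had 23.8, 19.8 and 50.1 CPM in the 28-day replicates, 42.0, 45.1 and 30.4 CPM in the 14-day replicates and 8.52, 11.2 and 18.6 CPM in the sham replicates. All 6 Ang II libraries were above all sham libraries, by a log2 fold change of 1.29 ± 0.42 (edgeR adjusted p = 0.244) at 28 days and 1.62 ± 0.43 (edgeR adjusted p = 0.117) at 14 days. Ccr1, the receptor of Ccl6 and Ccl9, stood at 1.38 ± 0.81 (edgeR adjusted p = 0.540) and 2.95 ± 0.84 (edgeR adjusted p = 0.124). Ccr6 and Ccr7, receptors of lymphocytes and mature dendritic cells, reached 24.6 and 40.5 CPM in 28-day replicate 2 and 20.6 and 94.4 CPM in 14-day replicate 3, against at most 3.11 and 8.72 CPM elsewhere. Those are the libraries in which Ccl5 was highest. Of the 5 atypical receptors, which bind chemokines without G protein signalling, 0 had an unadjusted p under 0.05 at either time, by edgeR, and DESeq2 called 0.

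Other chemokines and their known inducers were counted in the same fits at an unadjusted p under 0.05. Of 11 other CC chemokines, 8 passed the filter. At 28 days 4 were higher than in sham aortas (Ccl17, Ccl19, Ccl21a and Ccl22) and at 14 days 3 (Ccl19, Ccl21a and Ccl22), beside 7.96% and 13.1% of all genes, and Ccl27a was lower at both, by -0.87 ± 0.22 (edgeR adjusted p = 0.206) and -1.20 ± 0.22 (edgeR adjusted p = 0.117) on the log2 scale. The 28-day value of Ccl17 rested largely on replicate 1, at 19.4 CPM against 0.860 and 1.29 CPM in replicates 2 and 3. Its sham counts were 4, 1 and 4, and DESeq2 gave it no p-value at 28 days. Ccl19, Ccl21a and Ccl27a have near-identical copies in the mouse genome, and the deposited counts of Ccl27a are not whole numbers in any of the 9 libraries, so the counts of all 3 are uncertain. Ccl19 and Ccl21a were highest in the B cell rich libraries, at 41.1 and 427.5 CPM in 28-day replicate 2 and 34.6 and 531 CPM in 14-day replicate 3. Ccl21a is also 1 of the lymph node stroma markers. The part of such tissue in these values was not tested. Of 13 CXC, CX3C and XC chemokines tested, 5 were higher at 28 days and 11 at 14 days, where 7.96% and 13.1% of all genes were. Sham replicates 1 to 3 had 4, 1 and 2 counts of Cxcl2, 5, 0 and 2 of Cxcl5 and 4, 7 and 2 of Xcl1. These genes passed the filter through Ang II libraries alone, and Cxcl1 and Ppbp mainly through them. The counts of this list beside these shares are therefore not a test of it as a set. Of 14 genes for NF-κB subunits, inhibitors and kinases, 6 were higher at 28 days and 10 at 14 days, beside the same 7.96% and 13.1% of all genes, among them Nfkb1 at 0.63 ± 0.21 (edgeR adjusted p = 0.254) and 0.95 ± 0.21 (edgeR adjusted p = 0.117), and Nfkbie at 1.81 ± 0.60 (edgeR adjusted p = 0.251) and 2.02 ± 0.61 (edgeR adjusted p = 0.129). Rela, the subunit that activates many chemokine genes, stood at 0.04 ± 0.18 and 0.35 ± 0.18, with edgeR adjusted p of 0.956 and 0.290. Of 10 cytokines that induce CC chemokines, only Tnf, Il1a, Il1b and Csf1 passed the filter, and of these 4 Tnf had an unadjusted p under 0.05 and was higher at 28 days, as were Tnf and Il1b at 14 days, where 7.96% and 13.1% of all genes were. Tnf had 0.985, 4.23 and 2.35 CPM in the 28-day replicates, 2.59, 5.47 and 4.89 CPM in the 14-day replicates and 0.959, 0.215 and 0.356 CPM in the sham replicates. Its sham counts were 9, 3 and 4, so it passed the filter mainly through Ang II libraries. Every Ang II library was above every sham library, the lowest of them barely, and the log2 fold change was 2.33 ± 0.73 (edgeR adjusted p = 0.237) at 28 days and 3.09 ± 0.75 (edgeR adjusted p = 0.117) at 14 days. Il1b stood at 1.51 ± 0.69 (edgeR adjusted p = 0.386) and 2.69 ± 0.71 (edgeR adjusted p = 0.117). Il1a stood at 0.19 ± 0.99 (edgeR adjusted p = 0.964) and 1.73 ± 1.005 (edgeR adjusted p = 0.336), and Csf1, a macrophage growth factor, at 0.17 ± 0.25 (edgeR adjusted p = 0.881) and 0.50 ± 0.25 (edgeR adjusted p = 0.271).

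The unadjusted calls depended on single libraries. Without 14-day replicate 2, the members higher at 14 days fell in number to 3 (Ccl4, Ccl5 and Ccl8), and the median log2 fold change of all 10 members was 1.67. Without sham replicate 2, the library lowest for 8 members, the 14-day count was 4 (Ccl2, Ccl4, Ccl5 and Ccl8) and the 28-day count was 1 (Ccl5). Without 28-day replicate 3, the 28-day count was also 1 (Ccl5), with a median of 0.77 over all 10 members. Ccl5 kept an unadjusted p under 0.05 at both times in each of these 3 fits, but not at 28 days without the 3 nerve-rich libraries, where its log2 fold change was 2.09 ± 0.85 (edgeR adjusted p = 0.493) and 0 members had one.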

How the data were processed

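The values are expected counts per gene, which the authors deposited as 1 file per library, per the file headers and the submitters' processing notes. Those notes name HISAT2 2.2.1, Bowtie2 2.4.5, RSEM 1.3.1 and the mouse build GRCm38.p6; no source used here gives their roles, the annotation or the strandedness. Per the labels, libraries were made with an mRNA kit from 1.0 ug of total RNA. In each library 9.77% to 11.0% of genes had an expected count that was not whole; counts were rounded. Entrez IDs were matched to symbols for 18775 of 18830 genes. With edgeR 4.0.16 in R 4.3.3, 14741 genes passed filterByExpr, libraries were scaled by TMM, and the quasi-likelihood test (a mean per group, all 9 libraries in 1 model) was adjusted by Benjamini-Hochberg over all genes (threshold 0.05). SE is the log2 fold change over the square root of F. The biological coefficient of variation was 51.3%. DESeq2 1.42.0 and limma 3.58.1 gave alternatives. The fits were tested on simulated data. Within each group, libraries differed by far more than sampling noise, so none was a repeat of another. Log2 CPM for correlations had a prior count of 2.

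The files hold no value per length, which the design had assumed, so levels per length are CPM per kb of the GENCODE vM21 principal transcript. Totals of 9609690 to 14923936 counts set the precision; 3 counts are 0.204 to 0.328 CPM. With 3 libraries against 3, an exact permutation test cannot reach p < 0.05, so single genes were tested in the shared fit. Members and lists were chosen with earlier results of these data known. Named genes are all 10 members, the genes of the chemokine, receptor, NF-κB and cytokine lists, and the 3 genes most like each member. Marker lists are given as sums, with some mast cell and eosinophil genes also named. 1 gene of the receptor list is not reported here. Replicate numbers were not treated as pairs. The alternatives were DESeq2, limma-voom, median-of-ratios factors, no filter, a filter of 5 CPM in 3 libraries, the compared groups alone, a replicate block, and libraries left out.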

Additional observations from a re-analysis of the deposited data

How the results depend on the processing

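Over all settings, 727 of 746 values of single members kept their direction and their side of the adjusted threshold, 12 passed it, all with DESeq2, and 7 turned sign. With DESeq2 the genes called were 970 at 28 days, 1970 at 14 days, 118 between the times and 1797 for both times, and the members 1, 7, 0 and 4. With limma-voom 5 members had an unadjusted p under 0.05 at 14 days. The labels do not say whether the replicate numbers pair the samples. Deviations from the group means correlated at -0.553 to 0.646 between same-numbered libraries and at -0.734 to 0.716 between differently numbered ones. These ranges are alike and cannot exclude a shared batch or pairing. With the replicate block, edgeR called 1 gene at 14 days and 1 for both times. There 4 and 2 members had an unadjusted p under 0.05, against 8 and 6 without the block. The compared groups alone gave 1 gene at 14 days; that setting does not exist for both times. Without the 3 nerve-rich libraries, 0 members at 28 days, 3 at 14 days, 1 between the times and 1 for both times had an unadjusted p under 0.05. A setting chosen after seeing the data, without the 2 libraries rich in skeletal muscle transcripts (28-day replicates 1 and 2), leaves 1 library at 28 days, assumed to vary like the others; it gave 5 members and a median of 2.42 at 28 days, called 1 gene at 14 days and 1 for both times, and turned Ccl8 to 0.26 and Ccl12 to 0.14 between the times. The setting without the B cell rich libraries was also chosen after seeing the data.

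Leaving out 1 library at a time gave 3 to 8 members with an unadjusted p under 0.05 and a median of 1.67 to 2.75 at 14 days, 1 to 4 members, a median of 0.77 to 1.90 and 0 to 7 genes called at 28 days, 0 to 3 members and -1.29 to -0.10 between the times, and 3 to 8 members, 1.59 to 2.33 and 0 to 5 genes for both times. The sign of some members turned. Ccl11 ran from -0.70 to 0.28 at 14 days, positive without 14-day replicate 2, and from -0.034 to 0.47 for both times, negative without 14-day replicate 1. Between the times, Ccl4 ran from -1.73 to 0.43 and Ccl9 from -0.78 to 0.20, both positive without 14-day replicate 2, and Ccl5 from -1.28 to 0.20, positive without 14-day replicate 3. With CPM in place of CPM per kb, 2, 3 and 5 members kept their place in the order at 28 days, at 14 days and in sham aortas. Ccl4 has no value under the filter of 5 CPM. The causes were not tested.

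Depth limits Ccl3 and Ccl4 in sham aortas, and the spread of 51.3% between libraries limits all calls.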
